A study of Mus musculus with 2 samples.

Results

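The genes described here are those of the mouse MHC class II pathway that display peptides to CD4 T cells, with their transactivator gene Ciita. They were taken from a list of 10 symbols: the chain genes H2-Aa, H2-Ab1 and H2-Eb1, the peptide editor genes H2-DMa, H2-DMb1, H2-DMb2, H2-Oa and H2-Ob, the invariant chain gene Cd74, and Ciita. All 10 were found in both deposited tables, among 37820 genes of a gene table and 28013 genes to which the transcripts of a transcript table could be linked. The study sequenced polyadenylated RNA of haematopoietic stem cells (HSCs), from which all blood cells descend, in the fetus and in the adult; genomic DNA is given as the molecule in the labels, but the protocol describes poly(A) selection of RNA. The adult HSCs were sorted from bone marrow of B6129SF1 mice, a cross between C57BL/6 and 129 strains, 6 to 8 weeks old, and 2 samples are listed for them; fetal samples were not analysed here as samples, so the FL columns are known by their header alone. The fetal HSCs came from liver at embryonic day 14.5; the sources used here do not give their strain, the sort markers or how many mice made a library.

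A class II molecule is built from an alpha and a beta chain. The invariant chain holds the empty molecule stable and carries it to acid compartments, where proteases cut it down to a short fragment in the groove. The H2-DM protein exchanges that fragment for antigen peptide, and H2-DO restrains H2-DM. Transcription of these genes depends on Ciita, a co-activator that does not bind DNA itself but docks on RFX, CREB and NF-Y proteins at a shared promoter module of an X box followed by a Y box. Class II genes are best known from dendritic cells, B cells and macrophages.

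The promoter module is shown first because most of these genes carry it in their promoter window. Sequences are from RefSeq windows of build GRCm38.p6 that run from 250 bases before to 50 bases after an annotated gene start; a window was found for 7 of the 10 genes, and not for H2-Ab1, Cd74 and Ciita. Each window was searched on both strands for the X-box core CAAC or TAAC followed, after 18 to 30 bases, by the Y box GATTGG; these letters were chosen after the windows had been read. Of the 7 genes 6 held the pair, as did H2-Eb2, a further class II beta chain gene. Among all 32851 windows, 91.2% held the core on either strand, 16.1% held the Y box and 1.1% held the pair. A match of letters is a description and not a measured binding site. The capitals below mark the core and the Y box, each sequence is written 5′ to 3′ on the strand of its gene, and all lie on chromosome 17.
H2-Aa, minus strand, chr17:34287855-34287925: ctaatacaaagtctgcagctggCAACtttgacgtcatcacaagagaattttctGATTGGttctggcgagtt
H2-Eb1, plus strand, chr17:34305755-34305824: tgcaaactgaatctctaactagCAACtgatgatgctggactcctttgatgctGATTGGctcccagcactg
H2-Eb2, plus strand, chr17:34325522-34325591: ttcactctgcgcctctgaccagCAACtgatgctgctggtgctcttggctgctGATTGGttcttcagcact
H2-DMb1, plus strand, chr17:34153076-34153146: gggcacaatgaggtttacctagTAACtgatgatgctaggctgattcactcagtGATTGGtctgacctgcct
H2-DMb2, plus strand, chr17:34145105-34145175: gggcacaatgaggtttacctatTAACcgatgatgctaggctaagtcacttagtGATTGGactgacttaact
H2-Oa, plus strand, chr17:34092282-34092352: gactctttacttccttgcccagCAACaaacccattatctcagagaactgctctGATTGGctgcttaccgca
H2-Ob, plus strand, chr17:34238797-34238864: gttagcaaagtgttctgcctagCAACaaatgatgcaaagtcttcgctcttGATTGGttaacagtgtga

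The spacing of core and Y box was close to constant. It was 27 bases in H2-Aa, H2-DMb1, H2-DMb2 and H2-Oa, 26 bases in H2-Eb1 and H2-Eb2, and 24 bases in H2-Ob. The core began at positions -131 to -75 relative to the annotated start. H2-DMa has 2 such windows, and neither held the pair.

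The values are FPKM, fragment counts scaled to the length of the feature and to the depth of the library, as the authors deposited them. Each table has 1 column headed FL (fetal liver) and 1 headed BM (bone marrow); how libraries were combined into a column is not stated. There are no replicate values, so no difference below could be tested or set against the spread between libraries, and no SD or n is given. The depth behind each value is unknown. "Higher" and "lower" describe these columns only. In bulk samples fewer cells of a type and less RNA per cell cannot be told apart.

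The headers of the 2 tables did not correspond. The fetal HSC genes Lin28b, Hmga2, Igf2bp1 and Igf2bp3 together had 141 FPKM in FL and 4.04 in BM of the transcript table, but 178 FPKM in FL and 147 in BM of the gene table. Among genes with 1 linked transcript, gene-table BM values lay within 10% of a constant ratio to transcript-table FL values for 74.6% of 3520 genes, against 16.3% of 3345 genes between the columns headed BM. The FL column of the gene table stood apart from the other 3, with endothelial markers at 2334 FPKM in sum against 87.6 to 103 FPKM. HSC markers were at 1 FPKM or more for 10 of 10 genes in every column except FL of the gene table, where Slamf1 was at 0.652 FPKM. Every value is therefore named by its table and header, and the BM column of the gene table is not described as adult HSCs.

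**Figure D1:**
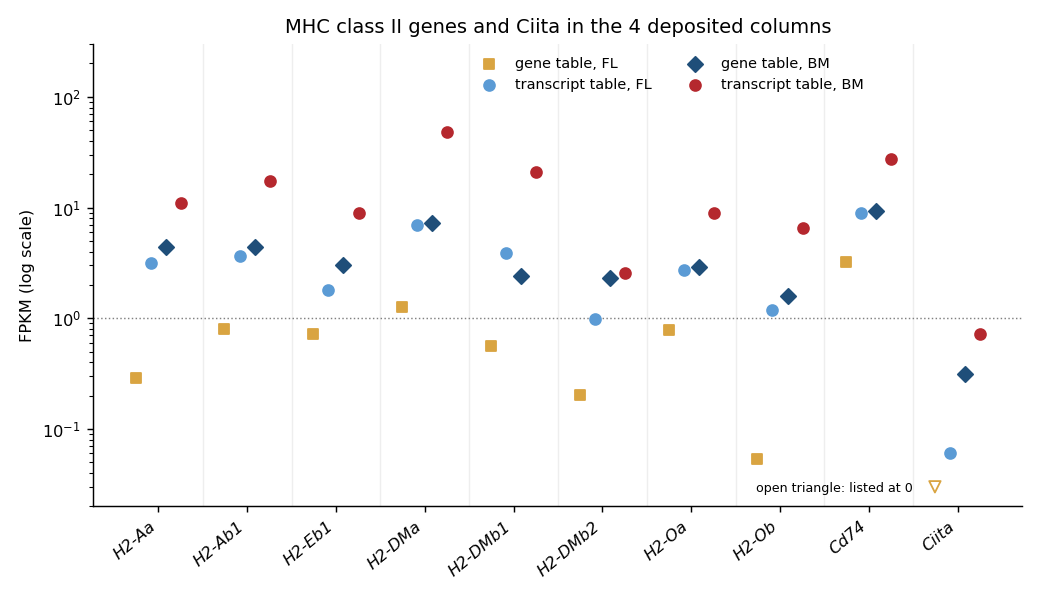
FPKM (log scale) of the 10 genes in the 4 deposited columns; each point is 1 column's value, the dotted line marks 1 FPKM and the open triangle a value listed at 0. For each gene the value is lowest in FL of the gene table and highest in BM of the transcript table. BM of the gene table is 0.624 to 1.68 times FL of the transcript table, except for H2-DMb2 and Ciita, at 2.35 and 5.09 times.

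Class II genes were higher in BM than in FL of the transcript table, from the chains through the editors to Cd74. The 10 genes summed to 33.2 FPKM in FL and 152 in BM, 4.58-fold higher, or 0.00558% and 0.0289% of all FPKM assigned to genes. Each of the 10 was higher in BM, by 2.61-fold to 11.9-fold. The relative log2 ratio, log2((BM + 0.1)/(FL + 0.1)) minus its median over genes that reach 1 FPKM in each column, had a median of 2.22 over the 10 genes, against 0.02 over the genes that reached 1 FPKM in either column. At that filter 9 of the 10 genes remained, and all 9 were at least 2-fold higher. Of the 12221 genes passing it, 13.3% were higher by 2-fold or more and 8.82% lower. With no filter all 10 class II genes passed 2-fold, against 13.9% of 17436 genes, and 10.8% of these were lower. H2-DMb2 passed the 1 FPKM filter through its BM value alone, at 0.987 FPKM in FL.

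The chain genes encode the peptide-binding heterodimers H2-A (H2-Aa with H2-Ab1) and H2-E. H2-Aa was at 3.12 FPKM in FL and 11.0 in BM of the transcript table, 3.52-fold higher. H2-Ab1, its beta partner, was at 3.68 and 17.3 FPKM, 4.70-fold higher. H2-Eb1, the beta chain of H2-E, was at 1.80 and 9.01 FPKM, 4.99-fold higher. The partners of H2-A were thus at like levels in FL, with an H2-Ab1 to H2-Aa ratio of 1.18, and further apart in BM, with a ratio of 1.57. H2-Ea, the alpha partner of H2-Eb1 and annotated as a pseudogene in the reference, was at 0.269 FPKM in BM; H2-Eb2 was at 0.0530 FPKM in FL and 0.418 in BM.

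The most abundant class II gene in BM of the transcript table was an editor gene and not the invariant chain gene. H2-DMa, the alpha chain of H2-DM, was at 6.91 FPKM in FL and 48.2 in BM, 6.98-fold higher. It stood above 31.7% of the genes at 1 FPKM or more in FL and above 84.2% of them in BM. Its partner H2-DMb1 was at 3.84 and 20.7 FPKM, 5.39-fold higher, and H2-DMb2, a second copy of the beta chain gene, at 0.987 and 2.58 FPKM, 2.61-fold higher. The beta copies together were at 4.83 and 23.3 FPKM, so that H2-DMa exceeded them 1.43-fold in FL and 2.07-fold in BM. These ratios count all linked transcripts, retained-intron ones included. From coding transcripts alone H2-DMa was at 5.97 FPKM in FL and 33.6 in BM. H2-DMb1 was then at 2.53 and 19.6 FPKM and H2-DMb2 at 0.987 and 2.58 FPKM. On that count H2-DMa still exceeded the beta copies together, but its excess was not larger in BM.

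The genes of H2-DO, the modulator of H2-DM, were lower than H2-DMa and H2-DMb1 in both columns of the transcript table. H2-Oa was at 2.75 FPKM in FL and 8.98 in BM, 3.26-fold higher. H2-Ob was at 1.19 and 6.55 FPKM, 5.49-fold higher. Per FPKM of H2-DMa there was 0.398 FPKM of H2-Oa in FL and 0.186 FPKM in BM, whereas H2-Ob per FPKM of the H2-DM beta copies was 0.247 in FL and 0.281 in BM. Each gene set against the H2-DM gene of its own chain type, H2-Oa was thus lower in BM and H2-Ob slightly higher. For H2-Ob the direction depended on the denominator and on the transcripts counted. Its 5.49-fold ratio was below the 6.98-fold of H2-DMa, but from coding transcripts alone these ratios were 8.13-fold and 5.63-fold.

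Cd74 was at 8.88 FPKM in FL and 27.2 in BM of the transcript table, 3.06-fold higher. It was first of the 10 genes in FL and the second in BM, behind H2-DMa. Relative to the 3 chain genes together, which were at 8.60 and 37.3 FPKM, Cd74 was at 1.03 in FL and 0.729 in BM. Ciita was the lowest of the 10 in both columns, at 0.0611 FPKM in FL and 0.725 in BM. Its 11.9-fold ratio rests on values under 1 FPKM, and its relative log2 ratio depends on the pseudocount, at 2.35 with 0.1 FPKM, 0.70 with 1 FPKM, which is under 2-fold, and 3.36 with 0.01 FPKM. Between H2-DMa and Ciita the order in BM ran Cd74, H2-DMb1, H2-Ab1, H2-Aa, H2-Eb1, H2-Oa, H2-Ob and H2-DMb2; H2-Eb1 and H2-Oa, at 9.01 and 8.98 FPKM, were the nearest neighbours.

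For most genes with 1 linked transcript, BM of the gene table holds values near FL of the transcript table. Its ratio of BM to FL is therefore another comparison and does not repeat the one above. Under the gene table's own headers the class II genes were higher in BM than in FL, at lower levels than in the transcript table. The 10 genes summed to 7.87 FPKM in FL and 37.9 in BM, 4.82-fold higher, and the median relative log2 ratio was 1.94 against -0.07 for the 13834 genes that reached 1 FPKM in either column. Of the 9 class II genes at that filter, all 9 were higher in BM by 2-fold or more, against 12.3% of all genes, and 23.6% of all genes were lower. With no filter the count was 10 of 10, against 10.4% of 21343 genes higher and 27.8% lower. Only H2-DMa and Cd74 were at 1 FPKM or more in FL as well. The median gene of this table was shifted by 0.24 on the log2 scale; after removing that shift 1708 genes were 2-fold or more higher and 3270 lower, and without removing it 2376 and 2826. The 9 class II genes passed 2-fold either way.

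By gene, the chains H2-Aa, H2-Ab1 and H2-Eb1 were at 0.289, 0.805 and 0.716 FPKM in FL of the gene table and at 4.35, 4.43 and 3.03 in BM. H2-DMa was at 1.27 and 7.28 FPKM, H2-DMb1 at 0.556 and 2.40 FPKM and H2-DMb2 at 0.201 and 2.32 FPKM. H2-Oa was at 0.787 and 2.93 FPKM and H2-Ob at 0.0534 and 1.58 FPKM. Cd74 was highest in both columns, at 3.20 and 9.29 FPKM, and was the class II gene with the smallest ratio, 2.91-fold. The largest, 29.6-fold for H2-Ob and 15.1-fold for H2-Aa, rest on FL values under 0.5 FPKM. Ciita was listed at 0 in FL and was at 0.311 FPKM in BM; its relative log2 ratio was 1.80 with the pseudocount of 0.1 FPKM and 0.17 with 1 FPKM.

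For most genes FL of the transcript table and BM of the gene table hold nearly the same values, so the class II values of these columns were set side by side. The tables were normalized separately. Of the 10 genes 3, H2-DMa, H2-Oa and Cd74, lay within 10% of the ratio of the median gene, which was 1.05. That median was taken over genes with 1 linked transcript at 1 FPKM or more in both columns, and 74.6% of those lay within 10% of it. Among the class II genes only H2-Eb1 and Ciita have 1 linked transcript, and Ciita was under 1 FPKM. The 74.6% is therefore not a like baseline for these 10 genes. H2-DMb2 was 2.35 times as high in the gene table and H2-DMb1 0.624 times, but their sum was 4.71 FPKM there and 4.83 FPKM in the transcript table, a ratio of 0.976. H2-Eb1 and H2-Aa were 1.68 and 1.39 times as high in the gene table, and Ciita 5.09 times. Each of these ratios was smaller than the BM to FL ratio of the same gene in the transcript table, most narrowly for H2-DMb2, at 2.35 against 2.61. Between the columns headed BM, values in the transcript table exceeded those in the gene table by 8.64-fold for H2-DMb1, 6.63-fold for H2-DMa, 3.90-fold for H2-Ab1, 2.92-fold for Cd74 and 1.11-fold for H2-DMb2.

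The H2-DM beta copies share sequence, which bears on their separate values. Of all 75-base windows of the main H2-DMb1 transcript, 19.1% (254 of 1330) also occur in H2-DMb2, and of its 100-base windows 13.7%; these are the read lengths in the labels. H2-Oa shares 17.3% of its 75-base windows with BC051537, a gene on the opposite strand whose exons overlap 29.5% of the main H2-Oa transcript. Exons of Dexi, on the opposite strand, overlap 1.85% of the Ciita transcript. The kit is not stated to keep strand, so reads in these overlaps cannot be assigned to a strand. The main transcripts of H2-Aa, H2-Ab1, H2-Eb1, H2-DMa, H2-Ob, Cd74 and Ciita had 0 windows in common with another gene at either length.

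**Figure D2:**
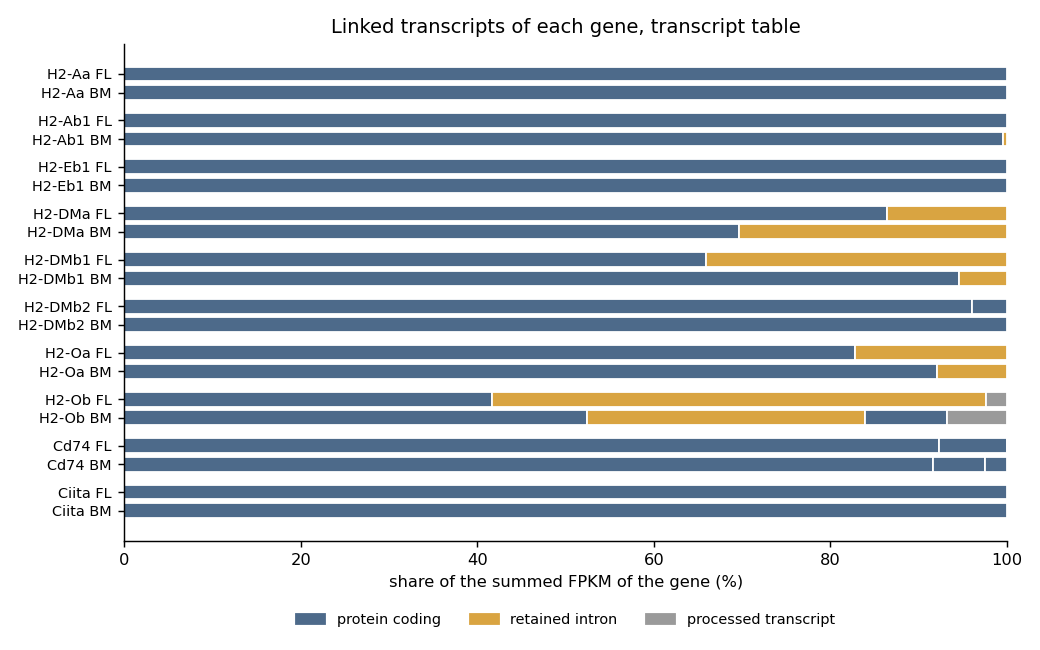
Share of each gene's summed FPKM (%) carried by its linked transcripts in the FL and BM columns of the transcript table; segments are transcripts, coloured by annotated type. The chain genes rest on 1 coding transcript each, while retained-intron transcripts take visible shares of H2-DMa, H2-DMb1, H2-Oa and H2-Ob.

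The 10 genes had 26 linked transcripts. For the chain genes nearly all of the signal was on 1 coding transcript, at least 99.6% in either column. Cd74-201, which encodes the shorter invariant chain of 215 residues, carried 92.3% of Cd74 in FL and 91.6% in BM. Cd74-202, which encodes the longer form of 279 residues, carried 7.67% and 5.91%, at 0.681 FPKM in FL and 1.61 in BM. Cd74-203, annotated with the same length of 279 residues, was at 0.676 FPKM in BM. The share of the shorter form was nearly the same in both columns while the level differed 3.06-fold.

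The editor genes differed more by transcript. The retained-intron transcript H2-DMa-202 was at 0.941 FPKM in FL and 14.6 in BM, and took 13.6% and 30.3% of the gene. That of H2-DMb1 was at 1.31 and 1.12 FPKM, 34.1% of the gene in FL and 5.41% in BM, so that the coding transcript H2-DMb1-201 alone was 7.73-fold higher in BM, at 2.53 and 19.6 FPKM. In H2-Ob the retained-intron transcript H2-Ob-204 exceeded the coding H2-Ob-201 in FL, at 0.668 against 0.496 FPKM, and was below it in BM, at 2.06 against 3.43 FPKM. H2-Oa-202, also with a retained intron, took 17.3% of its gene in FL and 7.95% in BM. From coding transcripts alone, H2-DMa was 5.63-fold, H2-DMb1 7.73-fold, H2-Oa 3.63-fold and H2-Ob 8.13-fold higher in BM. How reads were divided among transcripts is not stated, and these shares carry no error.

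**Figure D3:**
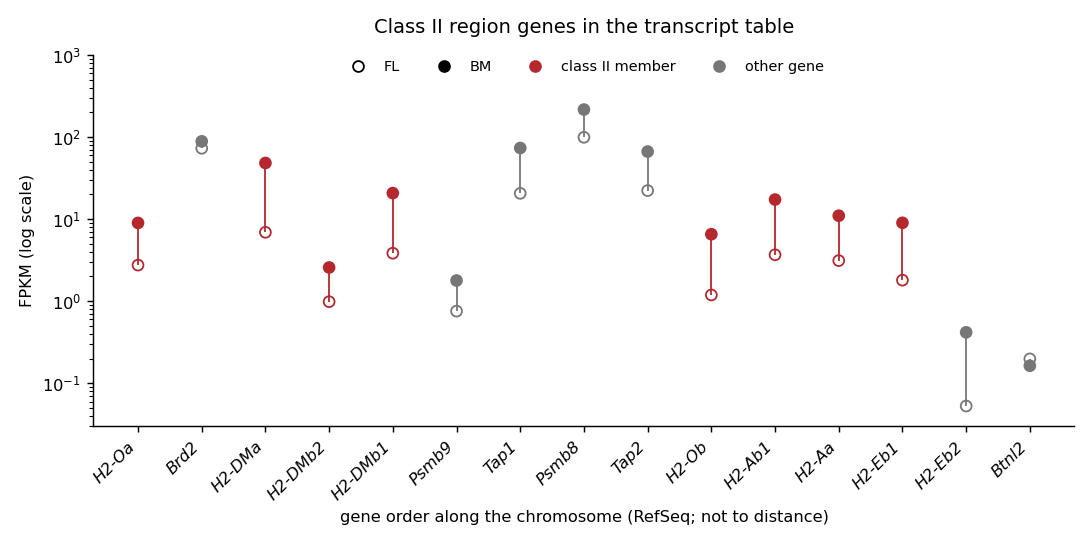
FPKM (log scale) of protein-coding genes from H2-Oa to Btnl2 in their RefSeq order, in FL (open) and BM (filled) of the transcript table; class II genes of the list are red and other genes grey. All red genes and the 4 class I processing genes among them are higher in BM, while Brd2 and Btnl2 are within 2-fold.

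The 8 class II genes on chromosome 17 lie close together, interspersed with other genes, while Cd74 is on chromosome 18 and Ciita on chromosome 16. The class I genes Tap1 and Tap2, which form the peptide transporter, and the immunoproteasome genes Psmb8 and Psmb9 sit between H2-DMb1 and H2-Ob. In the transcript table Tap1 was at 20.6 FPKM in FL and 73.4 in BM, Tap2 at 22.2 and 66.4 FPKM and Psmb8 at 99.0 and 216 FPKM. Psmb9 was at 0.758 and 1.79 FPKM and had no value in the gene table. Brd2, a bromodomain gene that lies between H2-Oa and H2-DMa, was at 72.8 and 88.5 FPKM, within 2-fold. Btnl2, just beyond H2-Eb2, was at 0.199 and 0.164 FPKM. In the wider class I list 10 of 11 genes were at least 2-fold higher in BM of the transcript table, against 13.3% of all genes, with a median relative log2 ratio of 2.19. Psmb9 and Nlrc5, at 0.758 and 0.788 FPKM in FL, passed the 1 FPKM filter through BM alone. By the gene table, 5 of 9 at 1 FPKM or more were higher and 1 was lower, against 12.3% and 23.6% of all genes.

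**Figure D4:**
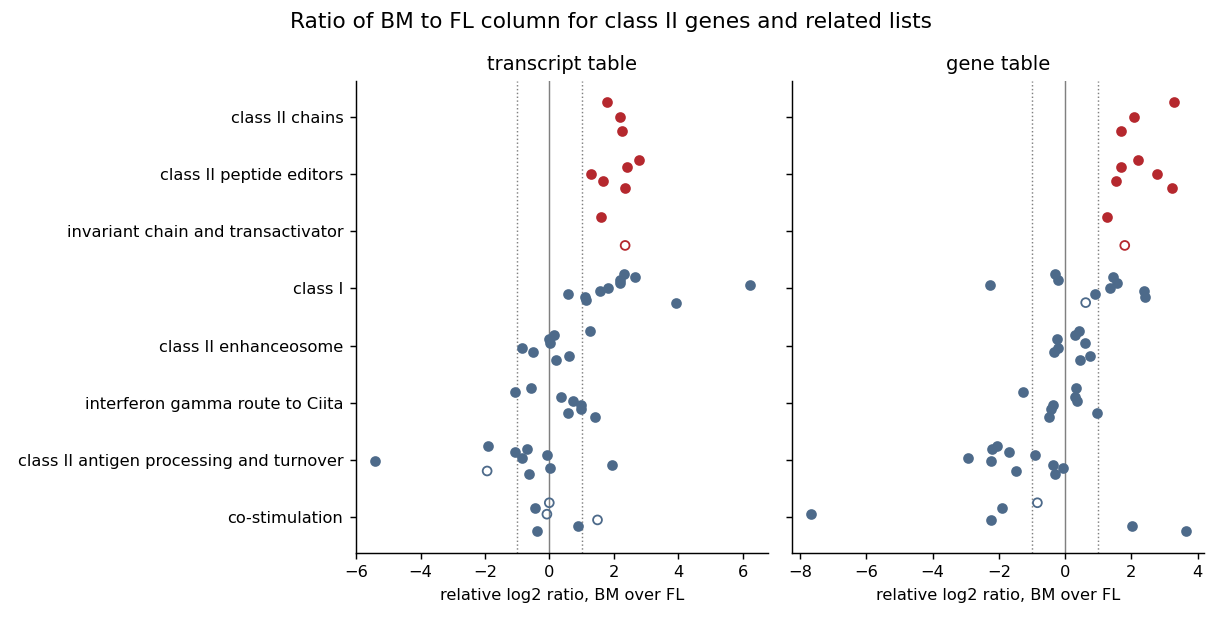
Relative log2 ratio of the BM to the FL column for each gene of 8 lists in the transcript table (left) and the gene table (right); filled points are at 1 FPKM or more in either column, open points below it, and dotted lines mark 2-fold. The class II genes and Ciita (red) all lie to the right of 2-fold in both panels, while most other lists (blue) spread over both sides. The exceptions are class I in the transcript table, all right of the centre line, and antigen processing and turnover in the gene table, all left of it.

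Of 8 enhanceosome genes, all at 1 FPKM or more, 1 was at least 2-fold higher in BM of the transcript table and none lower, against 13.3% and 8.82% of all genes, with a median relative log2 ratio of 0.08. This share is near that of all genes. The higher gene was Rfx5, the DNA-binding RFX subunit, at 9.44 FPKM in FL and 22.6 in BM. Its partners Rfxap and Rfxank were at 13.6 and 3.56 FPKM in FL and at 15.1 and 3.51 in BM, and the NF-Y subunit gene Nfya at 94.4 and 96.6 FPKM. In the gene table none of the 8 was 2-fold apart, against 12.3% of all genes higher and 23.6% lower, with a median of 0.35. These genes were thus well above Ciita, which was under 1 FPKM in all 4 columns.

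Interferon gamma induces Ciita through its receptor, the JAK kinases and downstream factors such as Irf1. Of 8 genes of this route, the inhibitor gene Socs1 was at least 2-fold higher in BM of the transcript table (2.74 and 7.50 FPKM) and the receptor gene Ifngr2 at least 2-fold lower (11.8 and 5.57 FPKM), with a median of 0.65. These shares of 1 in 8 are near the 13.3% higher and 8.82% lower of all genes. Irf1 was at 19.7 and 39.0 FPKM, just within 2-fold. In the gene table the median was -0.04, with Ifngr2 lower and none higher, against 23.6% and 12.3% of all genes. Nlrc5, the class I counterpart of Ciita, was at 0.788 FPKM in FL and 13.6 in BM of the transcript table.

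Of 9 genes that process class II antigen or turn class II molecules over and reached 1 FPKM in the transcript table, 3 were at least 2-fold lower in BM, 1 was higher and 5 were within 2-fold, with a median of -0.69. Of all genes 8.82% were lower and 13.3% higher. The lower genes were Ctss, the cathepsin that trims the invariant chain (15.8 FPKM in FL and 4.10 in BM), the asparaginyl endopeptidase gene Lgmn (37.3 and 0.772 FPKM) and the cathepsin gene Ctsb (71.8 and 34.0 FPKM). The higher gene was Ifi30, a lysosomal thiol reductase gene (0.384 and 1.76 FPKM). It passed the filter through BM alone, and the gene table gave it far higher values, 60.5 FPKM in FL and 55.9 in BM, within 2-fold. Sppl2a, the protease that clears the invariant chain stub, was at 17.5 and 17.8 FPKM. By the gene table, 6 of 10 were at least 2-fold lower and 0 higher, against 23.6% and 12.3% of all genes, with a median of -1.58.

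**Figure D5:**
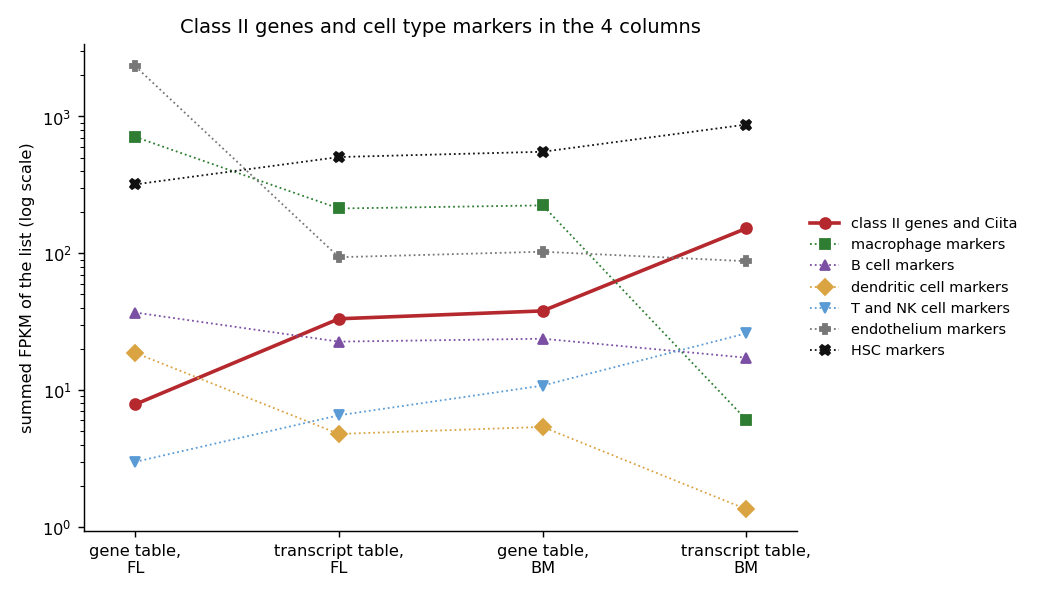
Summed FPKM (log scale) of the class II genes with Ciita and of 6 marker lists in the 4 columns; points are sums and the lines only join points of 1 list. The class II sum runs from 7.87 to 152 FPKM from left to right, while the macrophage sum runs from 709 to 6.06 FPKM.

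Markers of the cell types best known for class II were lower, or near 0, in the column where class II was highest. The 10 macrophage markers summed to 213 FPKM in FL and 6.06 in BM of the transcript table. All 9 at 1 FPKM or more in either column were at least 2-fold lower in BM, against 8.82% of all genes. In FL 9 markers reached 1 FPKM and in BM 3, so most passed this filter through FL alone. Csf1r, the macrophage growth factor receptor gene, was at 17.8 and 0.0779 FPKM. Of 7 dendritic cell markers in that table, none reached 1 FPKM in BM and 3 were listed at 0, with sums of 4.78 FPKM in FL and 1.35 in BM. Of 8 B cell markers, Ms4a1, Pax5 and Ebf1 were listed at 0 in BM; Cd79b, at 18.7 and 16.5 FPKM, made up most of the list's sums of 22.6 and 17.3 FPKM. The T and NK cell list was higher in BM, with sums of 6.55 and 26.0 FPKM, through Nkg7, Cd4 and Klrb1c, and 4 of its 8 genes were listed at 0 there; its part in the class II values was not tested. HSC markers summed to 505 FPKM in FL and 873 in BM.

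In the gene table the class II genes were lowest where the macrophage and endothelial sums were highest. The macrophage sum was 709 FPKM in FL and 224 in BM. Of 9 markers at 1 FPKM or more in either column 7 were at least 2-fold lower in BM and 2 higher. Of all genes 23.6% were lower and 12.3% higher. The complement gene C1qa was at 129 and 40.2 FPKM, while the scavenger receptor gene Marco was at 0.372 and 28.4 FPKM and Timd4 at 2.46 and 6.46 FPKM. The endothelial sum was 2334 and 103 FPKM. The part of these cell types in the low class II values of that FL column was not tested. Erythroid markers differed in opposite directions between the tables, with sums of 454 FPKM in FL and 54.7 in BM of the transcript table but 74.8 and 306 FPKM in the gene table.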

How the data were processed

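The authors deposited FPKM values in 2 tables, by gene and by transcript, with 1 FL and 1 BM column apiece and no replicate values. TopHat, Cufflinks, featureCounts of Subread, edgeR and build mm9 are named, with no role or version, per the submitters' processing notes; which annotation was used is not stated. Symbols, and genes of transcripts, were taken by identifier from GENCODE M21 (GRCm38); 76512 of 87641 transcripts were linked, and the rest carried 10.4% of the FPKM in FL and 10.9% in BM. Low values showed no steps from which reads could be recovered.

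Transcript FPKM were summed per gene. Ratios used a pseudocount of 0.1 FPKM and a filter of 1 FPKM in either column; 2-fold or more was counted. Calculations used Python 3.11.15, numpy 2.4.6 and pandas 2.3.3, figures matplotlib 3.10.9. The script was tested on simulated data. All 10 genes, the genes of 10 pathway and 9 marker lists, and the 5 genes nearest in pattern could be named. Members and lists were chosen with earlier results of these data known. BC051537, Dexi and the promoter motif letters were chosen after the data were seen.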

Additional observations from a re-analysis of the deposited data

How the results depend on the processing

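With no replicates, no setting could be set against library error, and low genes such as Ciita and H2-Ob depend most on the pseudocount. No paired analysis was possible because each table holds 1 column a group. In the transcript table the median relative log2 ratio of the 10 genes was 2.22; it was 1.66 with a pseudocount of 1, 2.27 with 0.01, 2.23 without centring, 2.20 with upper-quartile scaling, 2.27 from the most abundant transcript and 1.68 for BM of the transcript table against BM of the gene table. With alternatives chosen after seeing the data it was 2.24 with H2-DMb1 and H2-DMb2 summed and 2.25 from coding transcripts alone. In the gene table the median of 1.94 became 1.08, 2.24, 2.18 and 1.86 under the first 4 of these settings and 2.08 with H2-DMb1 and H2-DMb2 summed. With a pseudocount of 1, 8 class II genes in the transcript table and 7 in the gene table were at least 2-fold higher, against 9 and 9. A filter of 5 FPKM left 2 class II genes in the gene table, both at least 2-fold higher, by its own construction. Of all genes, 1622 higher and 1078 lower in the transcript table became 883 and 616 at 5 FPKM and 2421 and 1891 with no filter; 1708 and 3270 in the gene table became 1173 and 2018, and 2211 and 5936. All 90 single-gene ratios under these settings in the transcript table and all 60 in the gene table were above 0, the lowest being 0.27 and 0.17. The settings with no filter and with 5 FPKM cannot change a single-gene ratio, so their values repeat the main ones. The 0.27 is that of H2-DMb2 for BM of the transcript table against BM of the gene table, which is not a ratio of BM to FL.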

Other observations

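The co-stimulatory genes, whose products accompany class II on antigen-presenting cells, were low or at like levels in the transcript table. Of 6 such genes 3 were at 1 FPKM or more in either column, and none of these was 2-fold apart. Among all genes 13.3% were higher and 8.82% lower, so most genes were within 2-fold and 3 genes do not stand out from them. Cd86 was at 2.46 FPKM in FL and 1.79 in BM, and Cd80 was listed at 0 in BM. Cd274, which encodes the inhibitory ligand PD-L1, was at 5.68 and 10.5 FPKM. By the gene table, 3 of 5 at 1 FPKM or more were at least 2-fold lower in BM and 2 were higher, against 23.6% and 12.3% of all genes. Cd40 was at 32.9 FPKM in FL and 0.0909 in BM there, whereas Cd274 was at 1.19 and 6.05 FPKM and Pdcd1lg2, which encodes PD-L2, at 0.0896 and 2.69 FPKM.

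The genes nearest in pattern to the class II genes were sought over the 4 columns, 2 of which hold nearly the same values, so the likeness rests on few points. Distances are Euclidean, on centred log2(FPKM + 0.1), to the median profile of the 9 class II genes at 1 FPKM or more in any column, among 13463 genes. Eps8l1 (0.21), Cyp2j9 (0.22), Prrg4 (0.23), Serpina3g (0.24) and Pqlc3 (0.24) were nearest, against 0.13 to 1.20 for the class II genes themselves. Serpina3g was the most abundant of these, at 68.9 FPKM in FL and 245 in BM of the transcript table and 14.8 and 64.2 FPKM in the gene table.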
